A study of Homo sapiens with 12 samples.

Results

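The HOX genes were followed in U251 cells, an established human glioblastoma line, at passages 14 to 18. Members were taken by name: every gene of the deposited table whose symbol is HOX, a cluster letter A, B, C or D, and a number. This gave 39 of 27685 genes, of which 31 held enough reads to be tested among 15769 tested genes. Poly(A) RNA was sequenced from cells with a short hairpin RNA (shRNA) against INCA1, the study's name for a long noncoding RNA (shINCA1) and from cells with a control hairpin (shCTRL). The 4 groups were shINCA1 cells with interferon gamma (IFNγ) for 24 h, untreated shINCA1 cells, shCTRL cells with IFNγ for 24 h, and untreated shCTRL cells, with 3 libraries in each. The study asked what this RNA does in the interferon response of tumour cells, and the HOX genes were not its subject.

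HOX genes encode homeodomain transcription factors that give cells their position along the body axis. In humans they lie in 4 clusters, HOXA on chromosome 7, HOXB on chromosome 17, HOXC on chromosome 12 and HOXD on chromosome 2, and the genes with the same number in different clusters are paralogues. Low numbers lie at the 3′ end of a cluster and act in the hindbrain and neck, and high numbers lie at the 5′ end and act in the lower trunk and limbs. Once set, the on or off state of each gene is kept by Polycomb and trithorax complexes. The forebrain normally lacks HOX expression, and glioblastomas often show it.

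Library totals were 46525032 to 66242859 estimated counts, and replicates of a group had correlations of log2(CPM + 1) of 0.996 to 0.997 (Pearson r across genes). CPM is the count of a gene per 1000000 counts of the library, after TMM scaling. IRF1, a transcription factor gene induced by interferon, averaged 628 ± 6.65 CPM with IFNγ against 11.7 ± 0.947 CPM without it in shINCA1 cells, and 936 ± 4.91 against 15.1 ± 0.904 CPM in shCTRL cells (SD, n = 3 each). The targeted RNA itself was not analysed here: the table's entry INCA1 (5 to 19 counts) is a protein-coding gene of chromosome 17. The hairpin labels are thus unchecked against their target, and the labels show no more than 1 line for each hairpin, so effects of the hairpin and of the line cannot be told apart. The labels do not say that the libraries of a group came from separate cultures, and p-values measure only the spread between these libraries. Of the markers of the labelled cell type, VIM was at 1779 to 2631 CPM, and GFAP, the astroglial filament gene, was at 0.157 to 1.76 CPM. Of the 10 markers of this list, 4 were higher and 5 lower in untreated shINCA1 than in untreated shCTRL cells by edgeR, with log2 differences of -2.18 to 3.96, and 4 were higher and 6 lower with IFNγ. Of all genes tested, 56.9% differed between the untreated lines and 58.9% between the lines with IFNγ. The part of these 10 markers in the HOX differences was not tested.

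Which HOX genes the cells expressed was asked first. HOX genes of all 4 clusters were expressed. The tested members ran without a gap from HOXB3 to HOXB13 and from HOXD1 to HOXD11, and with a gap in HOXA and in HOXC. Levels of different genes are compared per kilobase of the canonical transcript. HOXC10 had the highest level of all members, 20.2 CPM per kb over all libraries, followed by HOXB7 at 16.2, HOXB3 at 10.97, HOXC13 at 6.72, HOXA7 at 5.49 and HOXD11 at 4.33 CPM per kb. HOXD11 was at places 11 and 10 in IFNγ-treated and untreated shINCA1 cells and at place 4 in both shCTRL groups. HOXC10 and then HOXB7 led in each of the 4 groups, but their libraries overlapped in both shCTRL groups. HOXC13 was at 7.85 ± 0.148 CPM per kb in IFNγ-treated shINCA1 cells and 3.29 ± 0.190 CPM per kb in IFNγ-treated shCTRL cells (SD, n = 3 each), 4 and 9 in the order of levels. HOXB9, a gene of the thoracic region of the skeleton in mice, was at place 6 in both shINCA1 groups and at place 13 in both shCTRL groups. In both shINCA1 groups the libraries of HOXB9 overlapped those of the next gene, HOXC4, whose libraries overlapped those of HOXB13.

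Silent members lay beside highly expressed ones. HOXA9, HOXB1, HOXC11, HOXC12, HOXD12 and HOXD13 were at 0 counts in all 12 libraries, which allows up to 0.0561 CPM in a group (3 counts per library, counting error only). HOXC11 and HOXC12 lie between HOXC10 and HOXC13, and HOXD12 and HOXD13 follow HOXD11 at the 5′ end of their cluster. HOXA10 and HOXB2 had 0 to 6 counts per library and were not tested. HOXA9 and HOXA10 lie between HOXA7, at 5.49 CPM per kb, and HOXA11, at 1.73 CPM per kb. HOXB1 and HOXB2 stand at the 3′ end of the HOXB cluster beside HOXB3. The tested genes HOXA2, HOXB4, HOXB5, HOXB8 and HOXD3 averaged under 0.5 CPM, while 17 tested members had at least 100 counts in every library.

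**Figure D1:**
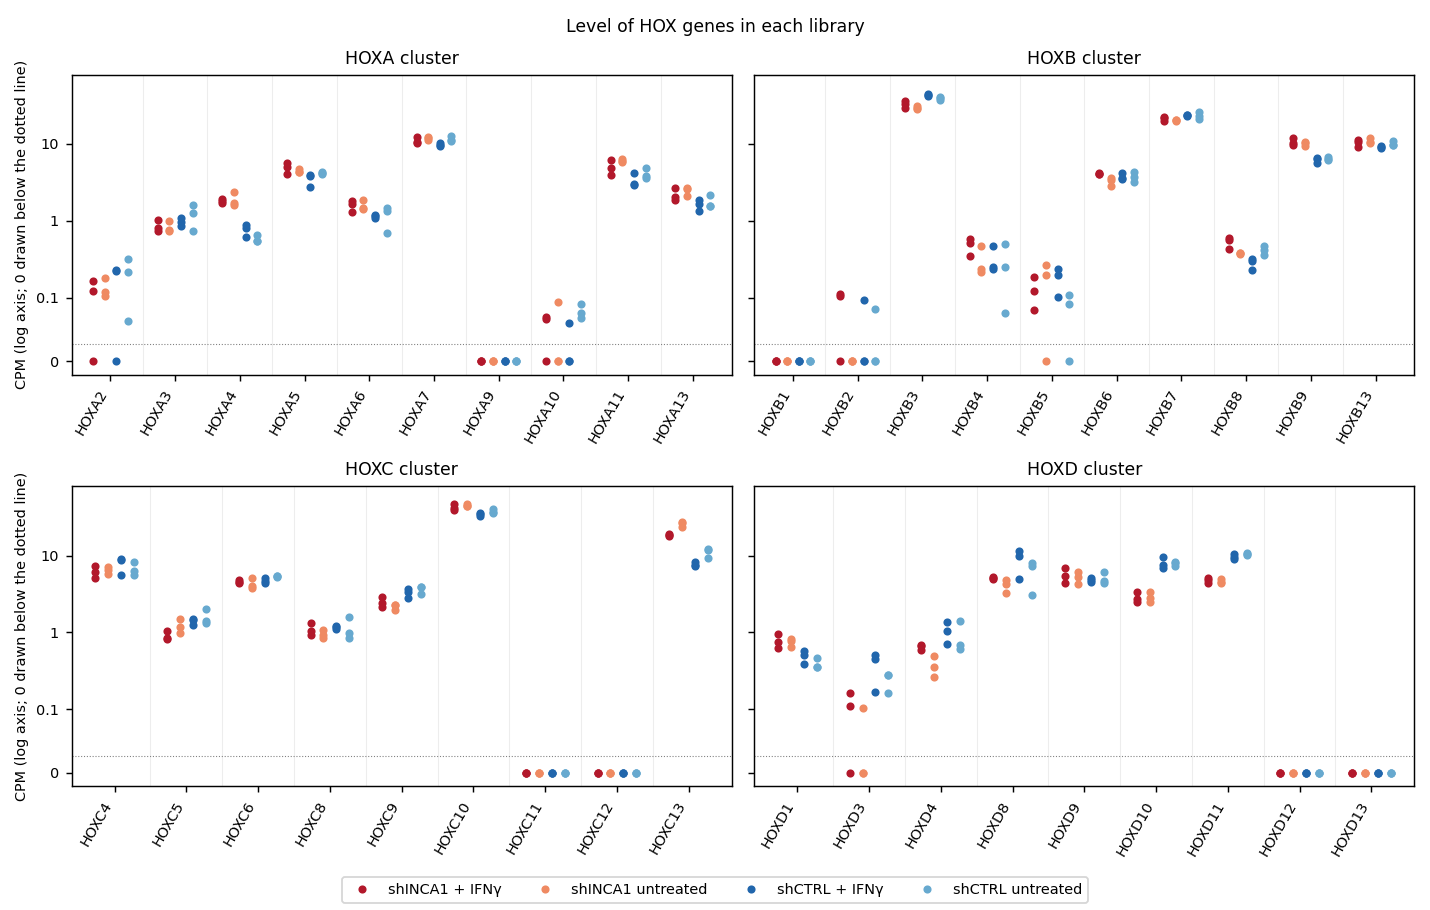
Level of 38 of the HOX genes in each library, in CPM on a log axis, by cluster in order of gene number; each point is 1 library and 0 is drawn below the dotted line. Points of 6 genes lie at 0 in all 12 libraries, and HOXC10, HOXB3 and HOXB7 have the highest CPM.

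In untreated cells the sum of all HOX genes had overlapping values in the lines, whereas the sums of each of the 4 clusters did not overlap. All members together held 203 to 221 CPM in untreated shINCA1 cells and 206 to 210 CPM in untreated shCTRL cells. The HOXD genes summed to 18.1, 16.8 and 19.1 CPM in untreated shINCA1 cells, against 27.7, 31.8 and 33.7 CPM in untreated shCTRL cells. The HOXC genes summed to 86.9, 82.3 and 90.7 CPM in untreated shINCA1 cells, against 67.8, 65.1 and 68.8 CPM in untreated shCTRL cells. All shINCA1 libraries were below all shCTRL libraries for HOXD and above them for HOXC. HOXA sums were 32.1, 31.3 and 32.4 CPM in untreated shINCA1 cells, against 26.0, 29.6 and 24.9 CPM in untreated shCTRL cells. HOXB sums were 74.0, 72.2 and 78.49 CPM in untreated shINCA1 cells, against 88.2, 83.9 and 78.50 CPM in untreated shCTRL cells. The shINCA1 libraries were the higher for HOXA and the lower for HOXB, where the nearest libraries of the lines almost met. These sums carry no test, and how often sums of other gene sets do not overlap was not counted. Of all genes tested, 56.9% differed between these lines by edgeR. A sum follows its genes of highest CPM. HOXC10 and HOXC13 averaged 45.6 and 25.9 CPM in untreated shINCA1 cells, against 37.6 and 11.1 CPM in untreated shCTRL cells. The median log2 difference of the tested HOXC genes was -0.26.

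The line with the hairpin against INCA1 was then compared with the control line without IFNγ, gene by gene. HOXA4 and HOXC13 were higher in shINCA1 cells by 1.72 ± 0.21 and 1.22 ± 0.09 on the log2 scale, and HOXD10, HOXD4 and HOXD11 had log2 differences of -1.44 ± 0.16, -1.27 ± 0.39 and -1.18 ± 0.09 (SE, n = 3 each). Of 31 tested members, 15 differed, 8 higher and 7 lower in shINCA1, by edgeR's quasi-likelihood test with Benjamini-Hochberg adjustment over all genes and a threshold of 0.05. That is 48.4%, against 56.9% of all genes tested (27.4% higher and 29.5% lower). Whether these shares differ was not tested. The median log2 difference of the 31 members was -0.05, against -0.01 over all genes tested. The median size of the difference was 0.49, against 0.32. Uncertain estimates at low counts enter the median size, such as HOXD3 (-2.77 ± 1.14) and HOXB5 (1.23 ± 1.03), neither called. The members were not compared with genes of like level. How many of all genes had no overlap between the libraries of the lines was not counted. The calls by cluster were 4 higher and 0 lower of 9 in HOXA, 1 and 2 of 8 in HOXB, 2 and 2 of 7 in HOXC, and 1 and 3 of 7 in HOXD. By position, 3 of 6 tested genes of paralogue groups 1 to 3, 4 of 15 of groups 4 to 8 and 8 of 10 of groups 9 to 13 were called. In bulk RNA, fewer cells that express a gene and less RNA per cell cannot be told apart.

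**Figure D2:**
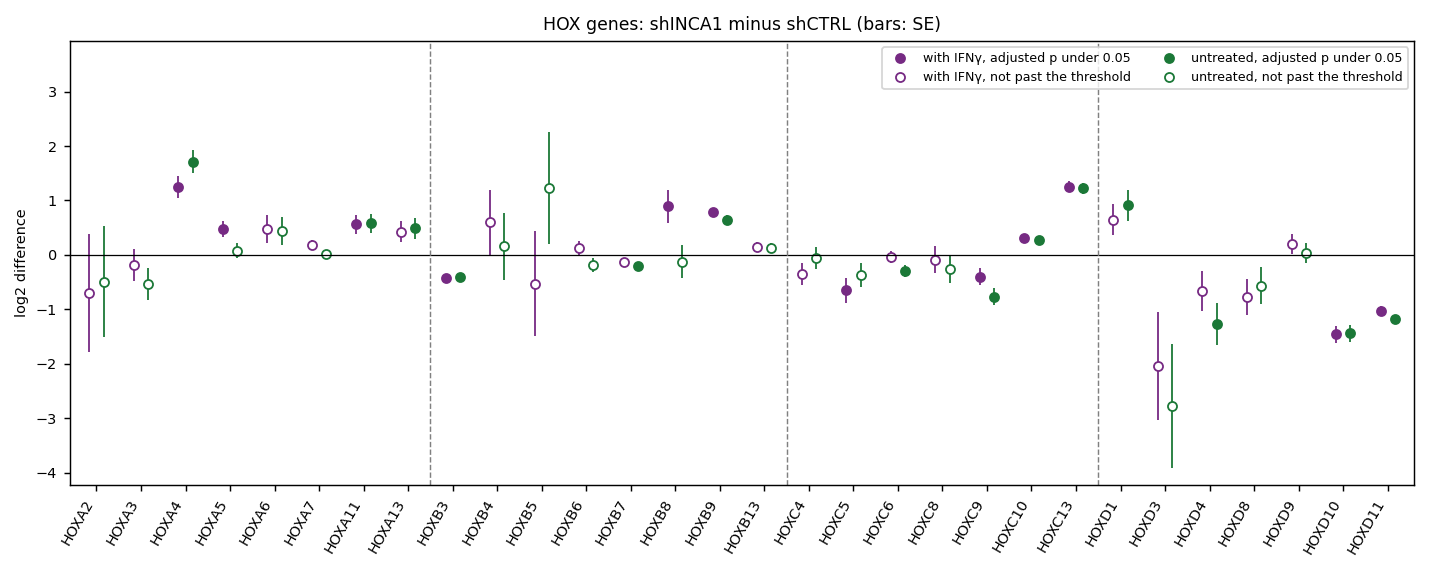
log2 difference between shINCA1 and shCTRL cells for 30 of the tested HOX genes, with IFNγ and untreated; points are edgeR estimates, bars are standard errors, filled points passed an adjusted p of 0.05 and dashed lines separate the clusters. HOXA4 and HOXC13 have the highest values among filled points, HOXD10 and HOXD11 the lowest with IFNγ, and HOXD10 and HOXD4 the lowest untreated.

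The 3 largest decreases among called members were all in the HOXD cluster, in HOXD10, HOXD4 and HOXD11. HOXD10 and HOXD11 are neighbouring 5′ genes that pattern the limbs and the lower spinal cord. Their promoter windows are shown because they had the lowest p of these decreases, that of HOXD12 because it is the next gene and was at 0, and that of HOXA4 because it had the largest increase. The windows are from RefSeq (GRCh38.p14), run 5′ to 3′ on the strand of the gene from 250 bases before its start to 50 after it, and were found for 20 of 39 members. The capitals mark matches, on either strand, to CCAAT (a common promoter element), TGATTNAT (a composite site for PBX and HOX proteins) or TGACAG (a short site for MEIS and TGIF proteins).
HOXD10, chr2:176116528-176116827, plus strand: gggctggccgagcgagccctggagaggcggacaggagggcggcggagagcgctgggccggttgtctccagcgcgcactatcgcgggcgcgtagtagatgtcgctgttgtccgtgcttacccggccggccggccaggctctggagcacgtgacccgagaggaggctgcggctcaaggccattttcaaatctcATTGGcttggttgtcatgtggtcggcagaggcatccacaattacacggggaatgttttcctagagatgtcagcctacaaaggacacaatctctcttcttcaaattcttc
HOXD11, chr2:176107030-176107329, plus strand: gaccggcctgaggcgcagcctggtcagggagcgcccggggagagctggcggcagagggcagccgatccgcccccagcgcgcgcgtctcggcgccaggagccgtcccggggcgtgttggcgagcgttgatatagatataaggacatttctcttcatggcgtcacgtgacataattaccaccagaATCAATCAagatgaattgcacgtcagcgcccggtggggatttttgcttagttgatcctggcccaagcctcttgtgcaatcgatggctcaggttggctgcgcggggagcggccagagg
HOXD12, chr2:176099545-176099844, plus strand: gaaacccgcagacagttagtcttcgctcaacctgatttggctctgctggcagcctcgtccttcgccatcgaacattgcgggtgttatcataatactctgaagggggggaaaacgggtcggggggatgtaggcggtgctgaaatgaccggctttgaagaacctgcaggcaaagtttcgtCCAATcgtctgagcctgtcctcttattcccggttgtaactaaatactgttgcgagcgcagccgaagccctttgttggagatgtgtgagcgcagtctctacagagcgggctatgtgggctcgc
HOXA4, chr7:27130708-27131007, minus strand: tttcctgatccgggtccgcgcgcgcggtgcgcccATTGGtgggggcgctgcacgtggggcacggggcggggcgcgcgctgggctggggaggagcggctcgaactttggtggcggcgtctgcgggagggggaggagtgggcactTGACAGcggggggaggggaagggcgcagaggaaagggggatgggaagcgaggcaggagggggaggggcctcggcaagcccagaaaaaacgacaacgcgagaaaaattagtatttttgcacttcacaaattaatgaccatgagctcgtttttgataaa
The windows of HOXD10 and HOXD12 held a CCAAT box, that of HOXD11 held the PBX and HOX composite, and that of HOXA4 held a CCAAT box and a MEIS and TGIF site. Of the 20 HOX genes with a window, 17 held a CCAAT box, and 34.6% of all 35116 windows of this length held it. The HOX counts are of genes, over any window of the gene, and the shares of all are of single windows. The PBX and HOX composite was in HOXA2 and HOXD11 alone among the 20, and in 2.82% of all windows. The MEIS and TGIF site was in 4 of 20, and in 15.8% of all windows. None of these motifs overlapped another in the windows shown. The median over these HOX genes was 23 CG pairs per window, against 14 over all windows. A match is only a match of letters, and its absence covers only these 300 bases.

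HOXD10 was at 2.82, 3.34 and 2.49 CPM in untreated shINCA1 cells, against 8.27, 7.21 and 7.93 CPM in untreated shCTRL cells. All shINCA1 libraries were below all shCTRL libraries, and the log2 difference was -1.44 ± 0.16 (SE, edgeR adjusted p = 7.23e-06). HOXD11, known with its HOXA paralogue for the forearm skeleton of mice, was at 4.34, 5.005 and 4.52 CPM in untreated shINCA1 cells, against 10.3, 10.7 and 10.5 CPM in untreated shCTRL cells. The groups again did not overlap, and the log2 difference was -1.18 ± 0.09 (edgeR adjusted p = 2.36e-07). HOXD10 and HOXD11 share exon sequence in the annotation, and reads from that stretch could count for either.

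HOXD4, a hindbrain gene that responds to retinoic acid, also fell. It was at 0.488, 0.266 and 0.356 CPM in untreated shINCA1 cells, against 0.613, 1.40 and 0.683 CPM in untreated shCTRL cells. The groups did not overlap, and untreated shCTRL library 2 stood above the other shCTRL libraries. Its log2 difference was -1.27 ± 0.39 (edgeR adjusted p = 0.0145), and the call was lost without untreated shCTRL library 2 (-0.82, adjusted p = 0.0808) or without untreated shINCA1 library 2 (-1.08, adjusted p = 0.0559).

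HOXD1, at the 3′ end of the same cluster and active in pain-sensing neurons of mice, moved the other way. It was at 0.819, 0.648 and 0.771 CPM in untreated shINCA1 cells, against 0.464, 0.361 and 0.360 CPM in untreated shCTRL cells. All shINCA1 libraries were above all shCTRL libraries, and the log2 difference was 0.91 ± 0.28 (edgeR adjusted p = 0.0162). This call was lost without untreated shCTRL library 2 or 3 or untreated shINCA1 library 1, with adjusted p of 0.0537 to 0.0540. HOXD9, between HOXD8 and HOXD10, averaged 5.21 ± 0.974 CPM in untreated shINCA1 cells and 5.08 ± 0.920 CPM in untreated shCTRL cells, a log2 difference of 0.03 ± 0.18 (edgeR adjusted p = 0.887).

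The values of HOXD8 and HOXD3 lay lower in shINCA1 cells without passing the test. HOXD8 was at 4.32, 3.28 and 4.81 CPM in untreated shINCA1 cells, against 3.11, 7.41 and 7.93 CPM in untreated shCTRL cells. Untreated shCTRL library 1 stood below every shINCA1 library, and without it the gene was called (-0.90, edgeR adjusted p = 0.0180), against -0.57 ± 0.34 with it (adjusted p = 0.183). HOXD3 averaged 0.0348 ± 0.0603 CPM in untreated shINCA1 cells and 0.240 ± 0.0675 CPM in untreated shCTRL cells, near the limit of detection, and was called by DESeq2 (adjusted p = 0.0229) but not by edgeR (adjusted p = 0.0557). Without untreated shINCA1 library 1 its edgeR adjusted p was 0.00949, and without IFNγ-treated shINCA1 library 1 it was 0.0376.

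In the HOXA cluster the 4 called genes were all higher in shINCA1 cells. HOXA4 was at 2.39, 1.63 and 1.72 CPM in untreated shINCA1 cells, against 0.646, 0.552 and 0.540 CPM in untreated shCTRL cells. The groups did not overlap, and the log2 difference of 1.72 ± 0.21 (edgeR adjusted p = 2.35e-05) was the largest increase of any called HOX gene. HOXA4 overlaps HOXA-AS2 and HOXA-AS3 on the other strand, which held 0 to 11 counts per library.

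HOXA11, a gene of the uterus and the forearm, was at 6.34, 6.09 and 5.82 CPM in untreated shINCA1 cells, against 3.81, 4.84 and 3.60 CPM in untreated shCTRL cells. The groups did not overlap, and the log2 difference was 0.58 ± 0.18 (edgeR adjusted p = 0.0153), lost without untreated shCTRL library 1 or 3 (adjusted p = 0.0553 and 0.0614). HOXA13, a gene of the hand, foot and genital tract, was close to the threshold (0.49 ± 0.19, edgeR adjusted p = 0.0496), its groups overlapped, and the call was lost with DESeq2 (adjusted p = 0.0516) and in 10 of the other alternatives. HOXA7, the member of the cluster with the highest level, was at 11.8, 11.1 and 12.2 CPM in untreated shINCA1 cells, against 11.3, 12.7 and 10.8 CPM in untreated shCTRL cells. Its groups overlapped, with a log2 difference of 0.01 ± 0.08 (edgeR adjusted p = 0.912).

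In the HOXC cluster the called 5′ genes, HOXC10 and HOXC13, were higher in shINCA1 cells, and HOXC6 and HOXC9 were lower. HOXC13, which hair and nail formation depends on, was at 27.6, 23.8 and 26.5 CPM in untreated shINCA1 cells, against 9.34, 11.8 and 12.2 CPM in untreated shCTRL cells. Every shINCA1 library was above every shCTRL library, and the log2 difference was 1.22 ± 0.09 (edgeR adjusted p = 4.03e-07). HOXC10, a gene of lumbar motor neurons, was at 44.7, 44.6 and 47.4 CPM in untreated shINCA1 cells, against 40.5, 35.6 and 36.8 CPM in untreated shCTRL cells. Again the groups did not overlap, and the log2 difference was 0.28 ± 0.07 (edgeR adjusted p = 0.0033).

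HOXC9, which sets thoracic motor neuron identity in mice, was at 1.93, 2.28 and 2.28 CPM in untreated shINCA1 cells, against 3.96, 3.14 and 3.94 CPM in untreated shCTRL cells. All shINCA1 libraries were lower, and the log2 difference was -0.77 ± 0.16 (edgeR adjusted p = 0.00115). HOXC6, a gene of the thoracic and mammary region, averaged 4.33 ± 0.682 CPM in untreated shINCA1 cells and 5.35 ± 0.114 CPM in untreated shCTRL cells (log2 difference -0.30 ± 0.11, edgeR adjusted p = 0.0310). Its call was lost with DESeq2 (adjusted p = 0.0617), with no filter (adjusted p = 0.0534), with only these 2 groups in the fit (adjusted p = 0.0811) and without any 1 of untreated shCTRL library 2 or 3 and untreated shINCA1 library 1 or 2 (adjusted p 0.0666 to 0.112). HOXC6 shares exons with HOXC4 and HOXC9 on the same strand in the annotation.

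In the HOXB cluster HOXB9 was higher and HOXB3 and HOXB7 were lower in shINCA1 cells. HOXB9 was at 9.49, 10.2 and 10.7 CPM in untreated shINCA1 cells, against 6.86, 6.32 and 6.22 CPM in untreated shCTRL cells. All shINCA1 libraries were higher, and the log2 difference was 0.65 ± 0.09 (edgeR adjusted p = 5.06e-05). HOXB3, a hindbrain gene that shares exons with HOXB4 and HOXB6, was at 29.0, 28.2 and 31.3 CPM in untreated shINCA1 cells, against 39.8, 40.6 and 37.4 CPM in untreated shCTRL cells. Every shINCA1 library was below every shCTRL library, and the log2 difference was -0.41 ± 0.07 (edgeR adjusted p = 0.000236). HOXB7, often raised in tumours, was at 20.3, 19.9 and 20.3 CPM in untreated shINCA1 cells, against 25.7, 23.2 and 21.0 CPM in untreated shCTRL cells. The groups did not overlap, but the difference of -0.21 ± 0.07 (edgeR adjusted p = 0.0191) lost its call without untreated shCTRL library 1 (adjusted p = 0.0695), without untreated shINCA1 library 2 (adjusted p = 0.0591) and with only these 2 groups in the fit (adjusted p = 0.0705).

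Several paralogues were called in opposite directions. Of all genes tested, 27.4% were higher and 29.5% lower, and how often other sets of genes split this way was not counted. Of the calls below, HOXD4 and HOXA11 each kept theirs in 16 of 18 alternatives, and HOXA13 in 7 of 18. In group 4, HOXA4 was higher and HOXD4 lower in untreated shINCA1 cells. In group 9, HOXB9 was higher and HOXC9 lower, and in group 10, HOXC10 was higher and HOXD10 lower. In group 11, HOXA11 was higher and HOXD11 lower. In group 13, HOXC13 and HOXA13 were higher, and HOXB13, a prostate gene, had a log2 difference of 0.13 ± 0.09 (edgeR adjusted p = 0.243).

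**Figure D3:**
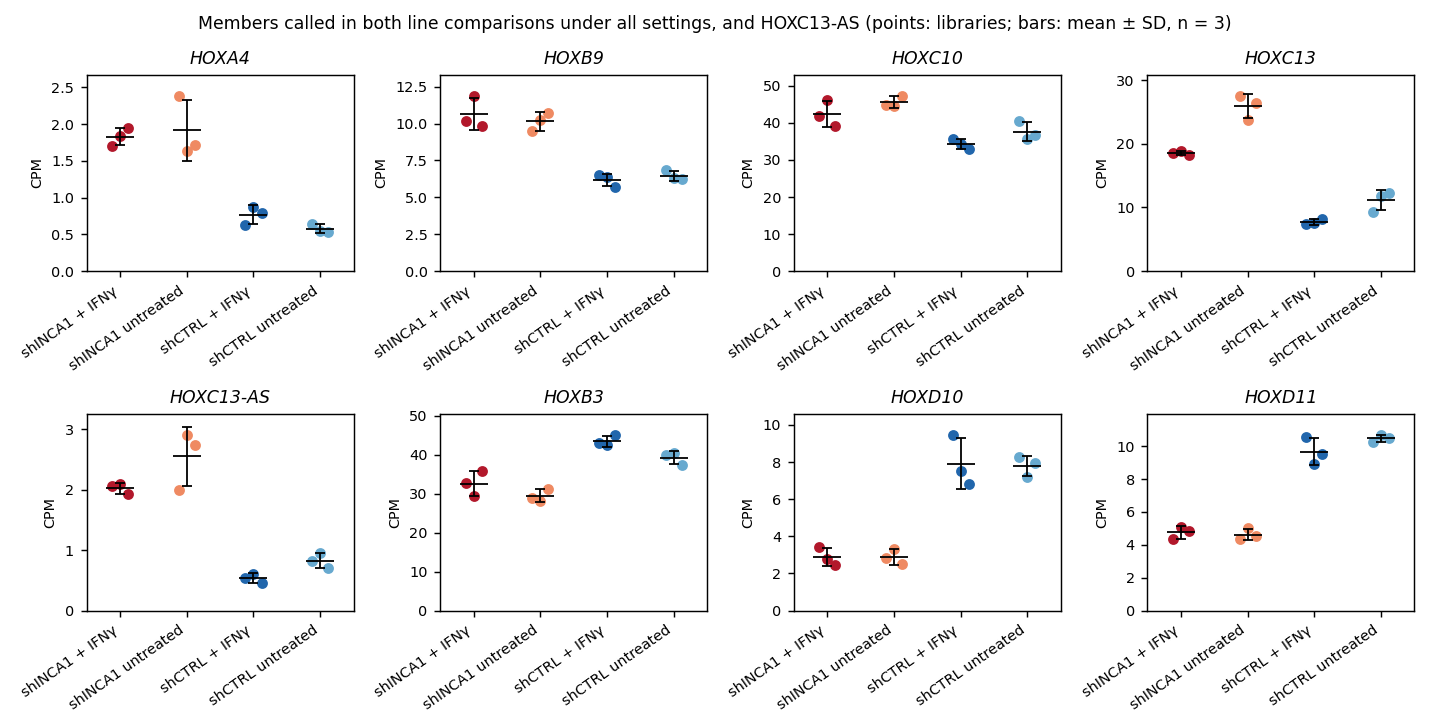
CPM of the 7 HOX genes called in both comparisons of the lines under every alternative tried, and of HOXC13-AS, in each library; points are libraries and bars are means ± SD (n = 3). HOXA4, HOXB9, HOXC10, HOXC13 and HOXC13-AS lie higher in both shINCA1 groups, and HOXB3, HOXD10 and HOXD11 lie lower, and HOXC13 is lower with IFNγ in each line.

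With IFNγ in both lines, 12 of 31 members differed between shINCA1 and shCTRL, 7 higher and 5 lower. That is 38.7%, against 58.9% of all genes tested (28.7% higher and 30.2% lower). These libraries are separate from the untreated ones, where 56.9% of all genes tested were called. The share of all genes called in both comparisons was not counted, so calls repeated in both have no background here. HOXA4, HOXA11, HOXB9, HOXC10 and HOXC13 were higher, and HOXB3, HOXC9, HOXD10 and HOXD11 lower, in both comparisons, so that 9 members were called in both comparisons, all 9 in the same direction. Of these, 7 kept the call in both comparisons under every alternative: HOXA4, HOXB9, HOXC10 and HOXC13 on the higher side, and HOXB3, HOXD10 and HOXD11 on the lower side. HOXA11 and HOXC9, whose groups overlapped with IFNγ, did not, since the call of HOXA11 was lost without any 1 of 3 IFNγ-treated libraries (adjusted p 0.0637 to 0.0960) and that of HOXC9 (-0.40 ± 0.16, edgeR adjusted p = 0.0452) in 12 of 18 alternatives (adjusted p up to 0.169).

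These 7 genes had log2 differences between -1.46 and 1.25 with IFNγ. HOXD10 was at 3.40, 2.75 and 2.46 CPM in IFNγ-treated shINCA1 cells, against 9.46, 7.49 and 6.80 CPM in IFNγ-treated shCTRL cells (log2 difference -1.46 ± 0.16, edgeR adjusted p = 6.54e-06). HOXD11 was at 4.34, 5.08 and 4.85 CPM in IFNγ-treated shINCA1 cells, against 10.5, 8.92 and 9.54 CPM in IFNγ-treated shCTRL cells (-1.02 ± 0.09, edgeR adjusted p = 8.50e-07). Both genes had all shINCA1 libraries below all shCTRL libraries, as they did without IFNγ. HOXC13 was at 18.5, 18.9 and 18.2 CPM in IFNγ-treated shINCA1 cells, against 7.41, 7.59 and 8.26 CPM in IFNγ-treated shCTRL cells (1.25 ± 0.10, edgeR adjusted p = 3.61e-07). HOXA4 was at 1.71, 1.84 and 1.94 CPM in IFNγ-treated shINCA1 cells, against 0.623, 0.878 and 0.798 CPM in IFNγ-treated shCTRL cells (1.25 ± 0.21, edgeR adjusted p = 0.000252). Neither gene had overlapping groups, and both were higher in shINCA1.

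HOXB9 was at 10.2, 11.9 and 9.83 CPM in IFNγ-treated shINCA1 cells, against 6.50, 6.35 and 5.72 CPM in IFNγ-treated shCTRL cells (0.78 ± 0.09, edgeR adjusted p = 1.06e-05). HOXC10 averaged 42.4 ± 3.61 CPM in IFNγ-treated shINCA1 cells and 34.3 ± 1.34 CPM in IFNγ-treated shCTRL cells (0.31 ± 0.07, edgeR adjusted p = 0.00166). HOXB3 averaged 32.6 ± 3.17 CPM in IFNγ-treated shINCA1 cells and 43.5 ± 1.42 CPM in IFNγ-treated shCTRL cells (-0.42 ± 0.07, edgeR adjusted p = 0.000209). The libraries of the lines did not overlap for any of these 3 genes. The genes were taken for their calls under every alternative, so the lack of overlap adds no separate support. The share of all genes without overlap was not counted.

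HOXA5, HOXB8 and HOXC5 were called with IFNγ only, and HOXA13, HOXB7, HOXC6, HOXD1 and HOXD4 were among those called without it only. The difference between conditions passed its own test, given with the IFNγ responses, for none of the genes named here (edgeR). HOXA5, a gene of lung development in mice, averaged 4.88 ± 0.804 CPM in IFNγ-treated shINCA1 cells and 3.49 ± 0.639 CPM in IFNγ-treated shCTRL cells (0.48 ± 0.14, edgeR adjusted p = 0.0139), lost without IFNγ-treated shINCA1 library 2 (adjusted p = 0.0609). HOXB8, whose loss causes excessive grooming in mice, averaged 0.525 ± 0.0875 CPM in IFNγ-treated shINCA1 cells and 0.281 ± 0.0462 CPM in IFNγ-treated shCTRL cells (0.89 ± 0.31, edgeR adjusted p = 0.0268), lost with DESeq2 (adjusted p = 0.0562), with the replicate block (adjusted p = 0.0501) and without any 1 of 4 IFNγ-treated libraries (adjusted p 0.0559 to 0.0855). HOXC5 averaged 0.897 ± 0.124 CPM in IFNγ-treated shINCA1 cells and 1.41 ± 0.126 CPM in IFNγ-treated shCTRL cells (-0.65 ± 0.23, edgeR adjusted p = 0.0264), lost without any 1 of 4 IFNγ-treated libraries (adjusted p 0.0650 to 0.0748). In all, 18 members were called in at least 1 of the comparisons of the lines, and 13 tested members in neither.

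Fewer HOX genes were called for IFNγ than between lines. In shINCA1 cells 1 of 31 members was called, lower with IFNγ (3.23%, against 9.08% of all genes tested, 6.13% higher and 2.95% lower). In shCTRL cells 1 of 31 was called, also lower (3.23%, against 17.2% of all genes tested, 9.72% higher and 7.51% lower). The gene was HOXC13 in both lines. With upper-quartile factors the split over all genes tested moved to 815 higher and 733 lower in shINCA1, against 967 and 465 with TMM factors, and to 1201 higher and 1970 lower in shCTRL, against 1532 and 1184. The median size of the response of the 31 members was 0.12 on the log2 scale in shINCA1 and 0.19 in shCTRL, against 0.09 and 0.12 over all genes tested.

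HOXC13 was at 18.5, 18.9 and 18.2 CPM in IFNγ-treated shINCA1 cells, against 27.6, 23.8 and 26.5 CPM in untreated shINCA1 cells. It was at 7.41, 7.59 and 8.26 CPM in IFNγ-treated shCTRL cells, against 9.34, 11.8 and 12.2 CPM in untreated shCTRL cells. In each line all treated libraries were below all untreated ones. The log2 response was -0.49 ± 0.09 in shINCA1 (edgeR adjusted p = 0.00501) and -0.52 ± 0.10 in shCTRL (edgeR adjusted p = 0.0026), and both calls held under every alternative, with adjusted p up to 0.023 and 0.0193. HOXC13 was called both between lines and for IFNγ, and the responses of the lines differed by 0.03 ± 0.13 on the log2 scale (edgeR adjusted p = 0.973).

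**Figure D4:**
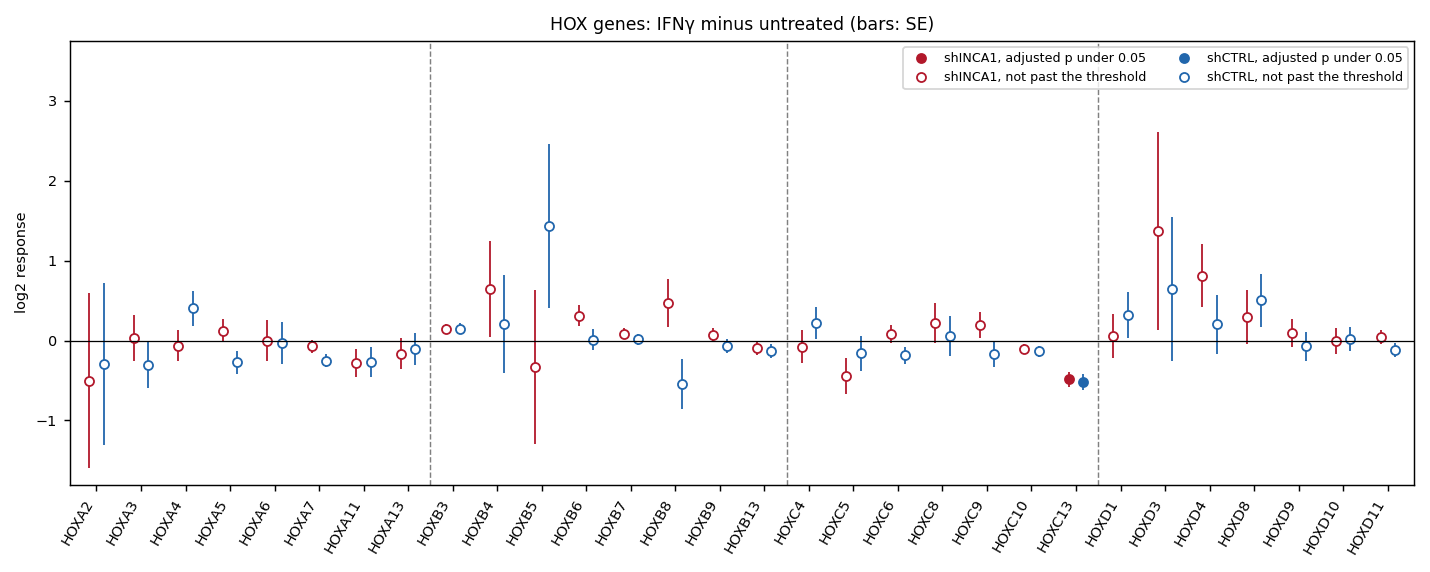
log2 response to IFNγ (treated minus untreated) of 30 of the tested HOX genes in shINCA1 and in shCTRL cells; points are edgeR estimates, bars are standard errors, filled points passed an adjusted p of 0.05 and dashed lines separate the clusters. Only HOXC13 has filled points, at -0.49 in shINCA1 and -0.52 in shCTRL, and the widest bars belong to genes under 0.5 CPM.

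HOXA7 came nearest to a second call. It was at 9.42, 9.70 and 10.2 CPM in IFNγ-treated shCTRL cells, against 11.3, 12.7 and 10.8 CPM in untreated shCTRL cells. The groups did not overlap, and the log2 response was -0.25 ± 0.08 (edgeR adjusted p = 0.0545), called with upper-quartile factors (-0.30, adjusted p = 0.0219), without untreated shCTRL library 3 (-0.30, adjusted p = 0.0451) and without IFNγ-treated shINCA1 library 2 (-0.27, adjusted p = 0.0288). In shINCA1 cells it was at 10.7, 12.3 and 10.4 CPM with IFNγ, against 11.8, 11.1 and 12.2 CPM without it, and the groups overlapped (-0.07 ± 0.08, edgeR adjusted p = 0.720).

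Whether the lines responded differently to IFNγ was tested as the response in shINCA1 minus the response in shCTRL. By edgeR 0 of 31 members were called, against 1.71% of all genes tested (0.615% higher and 1.10% lower), and DESeq2 also called 0. At an unadjusted p under 0.05 edgeR had 1 member, HOXB8, with a log2 difference of responses of 1.02 ± 0.43 (adjusted p = 0.386). HOXB8 had a log2 response of 0.47 ± 0.30 in shINCA1 and -0.55 ± 0.31 in shCTRL, neither called, at levels under 0.6 CPM. Among the line-dependent genes the difference of responses was -0.02 ± 0.22 for HOXD10, 0.16 ± 0.12 for HOXD11, -0.47 ± 0.29 for HOXA4 and 0.13 ± 0.12 for HOXB9 (edgeR adjusted p 0.627 to 0.999).

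Genes on either side of the clusters were set beside the members, 10 tested genes on each side of each cluster, in the order of the annotation. The 9 tested HOXA genes had a median log2 difference of 0.44 between untreated shINCA1 and shCTRL cells, against 0.29 in the 20 genes beside them, of which 12 were higher and 3 lower. The 7 tested HOXD genes had a median of -1.18, against -0.35 in the genes beside them, of which 1 was higher and 9 lower. The HOXC genes had a median of -0.26, against -0.22 beside them (2 higher and 11 lower), and the HOXB genes a median of 0.00, against 0.10 beside them (2 higher and 4 lower). Of all genes tested, 27.4% were higher and 29.5% lower between the untreated lines. With IFNγ the flanking medians were 0.44 beside HOXA, 0.05 beside HOXB, -0.13 beside HOXC and -0.36 beside HOXD. The medians of the tested members with IFNγ were 0.43 in HOXA, 0.14 in HOXB, -0.09 in HOXC and -0.77 in HOXD. On the side of lower coordinates the untreated flanking median was 0.37 beside HOXA, -0.37 beside HOXC and -0.20 beside HOXD, and on the side of higher coordinates it was 0.02, -0.02 and -0.39. With IFNγ the medians beside HOXA, HOXC and HOXD were 0.44, -0.27 and -0.30 on the side of lower coordinates. On the other side they were 0.33, 0.01 and -0.37 with IFNγ. Single genes on the side of HOXA with higher coordinates had untreated differences from -0.71 for JAZF1 to 2.21 for PRR15. Whether copy number of these chromosomes differs between the lines was not tested.

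**Figure D5:**
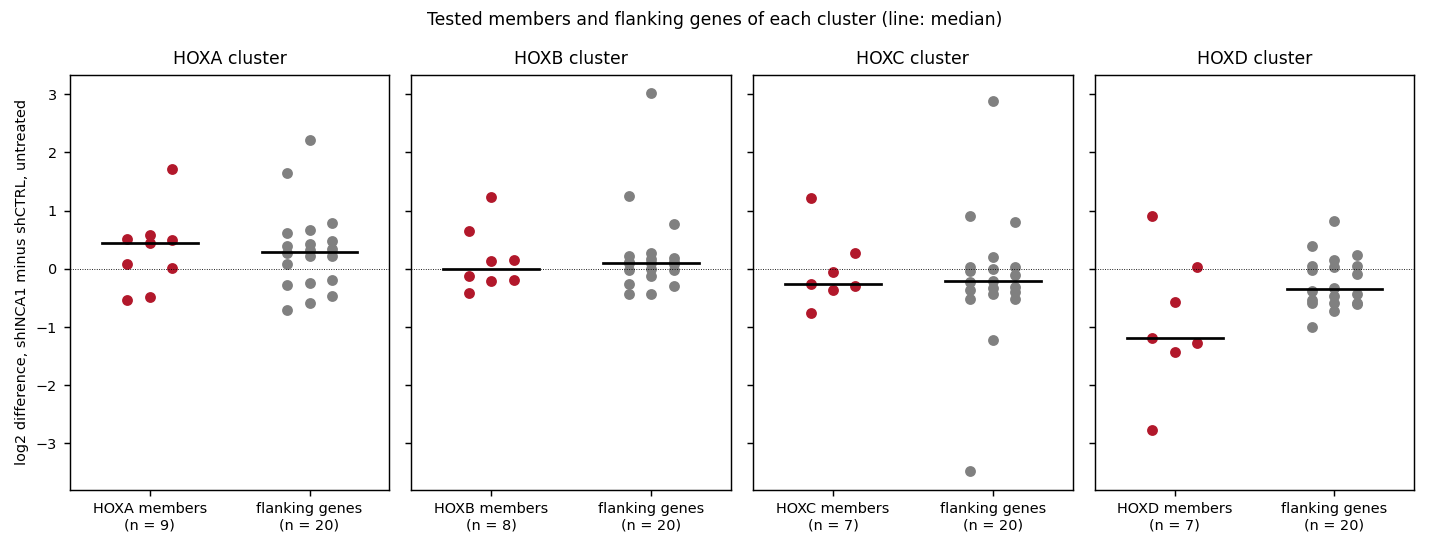
log2 difference between untreated shINCA1 and shCTRL cells for the tested members of each HOX cluster and for the 20 tested genes that flank it; points are genes and lines are medians. The medians of members and flanking genes are 0.44 and 0.29 at HOXA, 0.00 and 0.10 at HOXB, -0.26 and -0.22 at HOXC, and -1.18 and -0.35 at HOXD.

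The clusters also make noncoding RNAs, many of them antisense to a HOX gene. Of 30 listed, 18 were in the table and 10 were tested, with 1 of the 10 called higher in untreated shINCA1 cells, against 56.9% of all genes tested, and 3 of the 10 called higher with IFNγ, against 58.9%. HOXC13-AS, which overlaps HOXC13 on the other strand, was at 2.003, 2.91 and 2.74 CPM in untreated shINCA1 cells, against 0.828, 0.955 and 0.701 CPM in untreated shCTRL cells (log2 difference 1.63 ± 0.20, edgeR adjusted p = 2.00e-05). With IFNγ it was at 2.06, 2.10 and 1.93 CPM in shINCA1, against 0.540, 0.611 and 0.449 CPM in shCTRL (1.92 ± 0.21, edgeR adjusted p = 6.52e-06). It thus lay higher in shINCA1 in every library, as HOXC13 did, and without the strand setting of the counting, reads of the pair cannot be told apart.

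HOXA11-AS and HOXC-AS3 were the other called noncoding RNAs. HOXA11-AS had a log2 difference between lines of 0.91 ± 0.18 with IFNγ (edgeR adjusted p = 0.000774) and of 0.05 ± 0.17 without it (adjusted p = 0.842). In shCTRL cells it was at 0.830, 1.00 and 0.831 CPM with IFNγ, against 1.66, 1.34 and 1.55 CPM without it, a response of -0.77 ± 0.18 (edgeR adjusted p = 0.00977). HOXC-AS3, beside HOXC10, responded by -1.58 ± 0.40 in shCTRL (edgeR adjusted p = 0.0178) at 0.116 to 0.424 CPM. The difference of responses between lines was not called for either (0.87 ± 0.24, adjusted p = 0.133, and 1.26 ± 0.55, adjusted p = 0.400). HOTAIRM1, in the HOXA cluster, and HAGLR, beside HOXD1, were not called in any comparison, with log2 differences between untreated lines of 0.13 ± 0.13 and -0.04 ± 0.11.

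HOX proteins bind DNA with cofactors of the TALE family (PBX, MEIS and PKNOX proteins), and these genes were followed with the related TGIF genes and PBXIP1, which encodes a PBX-binding protein. Of 12 genes, 11 were tested, and 5 were higher and 4 lower in shINCA1 cells both without and with IFNγ (81.8%, against 56.9% and 58.9% of all genes tested). PBX2 had a log2 difference of -0.89 ± 0.05 (edgeR adjusted p = 1.97e-08) and PBXIP1 of -0.70 ± 0.05 (edgeR adjusted p = 3.57e-07) without IFNγ. MEIS1 was higher, by 0.38 ± 0.08 (edgeR adjusted p = 0.0014).

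Markers of other cell types were read beside the HOX genes. Leukocyte markers summed to at most 0.754 CPM and epithelial markers to at most 2.65 CPM in any library, with CD3E and HBB at 0 throughout. Neuron markers summed to 209 to 226 CPM in IFNγ-treated and 211 to 243 CPM in untreated shINCA1 cells, against 118 to 125 CPM in IFNγ-treated and 133 to 147 CPM in untreated shCTRL cells. Nearly all of this was the tubulin gene TUBB3 (113 to 234 CPM), while RBFOX3, the defining nuclear marker, had 0 to 5 counts. Of 3 tested neuron markers, 2 were higher and 1 lower in shINCA1 cells by edgeR, both without and with IFNγ. Their untreated log2 differences ran from -2.20 to 1.16. Of all genes tested, 56.9% were called without IFNγ and 58.9% with it. Endothelial markers summed to 15.1 to 17.2 CPM in IFNγ-treated and 9.54 to 11.3 CPM in untreated shINCA1 cells, against 9.24 to 10.3 CPM in IFNγ-treated and 7.09 to 7.87 CPM in untreated shCTRL cells, mostly KDR (6.22 to 15.9 CPM), and PECAM1 had 0 to 3 counts. Of 3 tested endothelial markers, 1 was higher and 1 lower with IFNγ in shINCA1 cells, against 9.08% of all genes tested called. In shCTRL cells 1 was higher and 0 lower, against 17.2%. Oligodendrocyte markers summed to at most 0.204 CPM in shINCA1 libraries and to 0.361 to 0.831 CPM in shCTRL libraries, with MOG at 0. The part of these markers in the HOX differences was not tested.

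The annotation places an exon of 20 of the 39 members on a gene of the opposite strand and of 16 on another gene of the same strand. No source used here gives the strand setting for counting, so single values of those genes are uncertain.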

How the data were processed

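RNA was extracted with RNeasy columns, made into stranded poly(A) libraries and sequenced on a NovaSeq, per the labels' protocols. The authors deposited 1 table of estimated counts per gene for 12 libraries (4 groups of 3). The submitters' processing notes name FastQC, Trimmomatic, HISAT2 and StringTie, and the build hg19; no source used here gives versions or the strand setting. The deposited estimated counts are whole numbers, and were used unscaled. Members had no value of 1 or 2 counts, and a floor of 3 counts per library was used, covering counting error only.

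Counts were fitted with edgeR 4.0.16 (R 4.3.3; glmQLFit and glmQLFTest, TMM factors, filterByExpr) over all 12 libraries with a coefficient per group. P-values were adjusted by Benjamini-Hochberg over the 15769 genes tested, with a threshold of 0.05. Tested genes held 99.986% of counts. The common biological coefficient of variation was 10.6%, and chi-square per degree of freedom between replicates was 14.9 to 26.1, so no libraries were duplicates. Counts were simulated for untreated shINCA1 against shCTRL (15502 genes), with 99 genes changed by 1 on the log2 scale and 99 by 2. The other genes had equal means in all groups. Of the changed genes 82.8% and 86.9% were called, and 7 unchanged genes were called. In the data 56.9% of genes tested were called, so these rates do not describe the reported comparison. Transcript lengths and overlaps came from GENCODE 44 (GRCh38), by gene symbol. The order of flanking genes came from RefSeq, by symbol or synonym, and promoter windows from RefSeq (GRCh38.p14). GRCh38 is not the build of the counts. Alternatives were other scaling factors, no filter, DESeq2 1.42.0, a replicate block, only 2 groups, and each library left out.

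All members may be named. Values per library are given for the 5 largest called increases and decreases between untreated lines, the 5 highest mean CPM, and genes called for IFNγ; of other lists, up to 4 called genes by p, and other genes and values were chosen after they were seen. Members and lists were chosen with earlier results of these data known. Counts cover all members; the values of some genes are not reported here.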

Additional observations from a re-analysis of the deposited data

How the results depend on the processing

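Between untreated lines 11 to 16 HOX genes were called when each library was left out in turn, against 15 with all libraries, and with IFNγ 9 to 14, against 12. Other settings gave 12 to 15 and 10 to 13. For the IFNγ response in shCTRL, 2 HOX genes were called with upper-quartile factors, HOXC13 and HOXA7, against 1, and 1 to 2 with each library left out; the cause was not tested. The response in shINCA1 stayed at 1 and the difference of responses at 0 under every alternative. Over all genes tested, DESeq2 called 192 higher and 317 lower for the difference of responses, against 97 and 173 by edgeR. Replicate numbers did not pair the libraries: correlations of the deviations of same-numbered libraries were -0.0358 to 0.0671, and 7 of 18 were best matches. With the replicate number as a block, 14, 11, 1, 1 and 0 HOX genes were called between untreated lines, between lines with IFNγ, for IFNγ in shINCA1 and in shCTRL, and for the difference of responses. Of 2752 values of single members under the alternatives, none reversed a call, 56 lost a call and 21 gained one. In 116 values the sign changed with neither estimate past the threshold. Members under 0.5 CPM rest on few counts, so a difference in them may not be detectable at this depth. Alternatives listed for normalised units do not apply to counts and were not run.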

Other observations

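Genes that set or keep HOX expression were read from the same fit. Of 31 tested Polycomb genes, 8 were higher and 12 lower in untreated shINCA1 cells, and 9 and 12 with IFNγ (64.5% and 67.7%, against 56.9% and 58.9% of all genes tested). PHC2, a subunit of Polycomb repressive complex 1, had a log2 difference of 0.77 ± 0.03 without IFNγ (edgeR adjusted p = 3.00e-09), and EZH2, the methyltransferase of Polycomb repressive complex 2, of -0.39 ± 0.03 (edgeR adjusted p = 9.60e-07). Of 24 tested trithorax genes, 5 were higher and 5 lower in untreated shINCA1 cells, and 5 and 10 with IFNγ (41.7% and 62.5%, against the same shares of all genes). KDM6B, a demethylase of the mark that EZH2 sets, had a log2 difference of 0.75 ± 0.06 (edgeR adjusted p = 3.94e-07).

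Of 16 tested retinoid and CDX regulators, 7 were higher and 6 lower in untreated shINCA1 cells, and 8 and 6 with IFNγ (81.2% and 87.5%, against 56.9% and 58.9% of all genes tested). ALDH1A3, which makes retinoic acid, averaged 14.2 CPM in untreated shINCA1 cells and 4.75 CPM in untreated shCTRL cells (log2 difference 1.58 ± 0.07, edgeR adjusted p = 3.55e-09). CRABP2, which carries retinoic acid to the nucleus, averaged 61.9 CPM in untreated shINCA1 cells and 32.1 CPM in untreated shCTRL cells (0.95 ± 0.05). The part of these genes in the HOX differences was not tested.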
